A study of Drosophila melanogaster with 10 samples.

Results

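The genes described here mark the blood cells (hemocytes) of Drosophila and were followed in reporter-positive cells sorted from embryo cultures. They are 10 genes: the plasmatocyte genes Hml, He, NimC1, NimC4 and crq, the crystal cell genes lz, PPO1 and PPO2, and the factor genes srp and ush. Each was measured by the probe set whose only annotated symbol was that gene, and where a gene had several, the brightest over the 10 arrays would have stood for it; each of the 10 had 1 probe set. All 10 were found, out of 11983 genes measured this way. The rule used no measured difference between the groups, but the list was drawn up with earlier results of these data known.

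The study hybridised total RNA from fluorescence-sorted cells to an Affymetrix array, 5 arrays for each of 2 transgenic strains. The strain called Cha here carried 7.4 kb of choline acetyltransferase (Cha) regulatory DNA that drove Gal4 and, through it, UAS-GFP. The strain called Gad here carried 2.1 kb of glutamate decarboxylase regulatory DNA, Gad1(s), joined directly to RFP. Both came from early gastrula embryos of adults that were 2 weeks old, and cultures were kept for 5 to 7 days at 25 °C before sorting. The reporters differ in fluorophore and in the use of Gal4, and no arrays of unsorted or reporter-negative cells were used here. The labels do not say whether the samples came from separate cultures, so every p-value reflects only how far these samples varied, which could be technical variation.

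Fly blood cells arise in the embryo under the GATA factor Serpent, the product of srp. Plasmatocytes are the macrophages, and they carry scavenger and Nimrod receptors that bind bacteria and dying cells. Crystal cells, specified by the Runx factor Lozenge (lz), store prophenoloxidases that are released on wounding and begin melanization. U-shaped (ush) is a zinc finger partner of GATA factors and limits the number of crystal cells. Lamellocytes are a further class, known mainly from larvae that carry parasitoid eggs.

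Facts of the whole series bear on these values as follows. The values are log2 expression values that the authors made with RMA, a procedure that gives every array the same distribution of values, so only changes relative to the other genes can be seen and dim genes have no true zero. Medians of the arrays ran from 5.7 to 5.78. The level under which 40% of an array's probe sets fell, called the dim level here, was 4.77 to 4.84 on Cha arrays and 4.75 to 4.82 on Gad arrays. The neuronal gene elav averaged 9.51 ± 0.56 in Cha and 9.10 ± 0.88 in Gad (SD, n = 5 each), and neither reporter gene passed the threshold: ChAT differed by 0.68 (limma adjusted p = 0.067) and Gad1 by 0.12 (limma adjusted p = 0.626). ChAT did pass, with the higher level in Cha, under array weights (0.74, limma adjusted p = 0.0308) and when Cha replicate 4 (0.81), Cha replicate 5 (0.80) or Gad replicate 4 (0.79) was omitted. Directions below refer to the array labels. In bulk RNA, fewer cells of a type and less RNA per cell cannot be told apart.

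The crystal cell enzymes were much higher in Cha, and the lineage factor srp was higher in Gad. The plasmatocyte genes among the 10 passed in neither direction. At a limma adjusted p under 0.05, 2 of the 10 passed with the higher level in Cha and 1 in Gad, against 8.21% and 10.2% of all 11983 genes, and 18.5% in either direction. The remaining 7 were not past the threshold. The median difference, Cha minus Gad, was -0.20 over the 10 genes and 0.04 over all genes. The arrays of the groups did not overlap for 3 genes with Cha above Gad (PPO1, PPO2 and Hml) and for 1 gene with Gad above Cha (srp), where 5.93% and 7.60% of all genes were so separated.

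**Figure D1:**
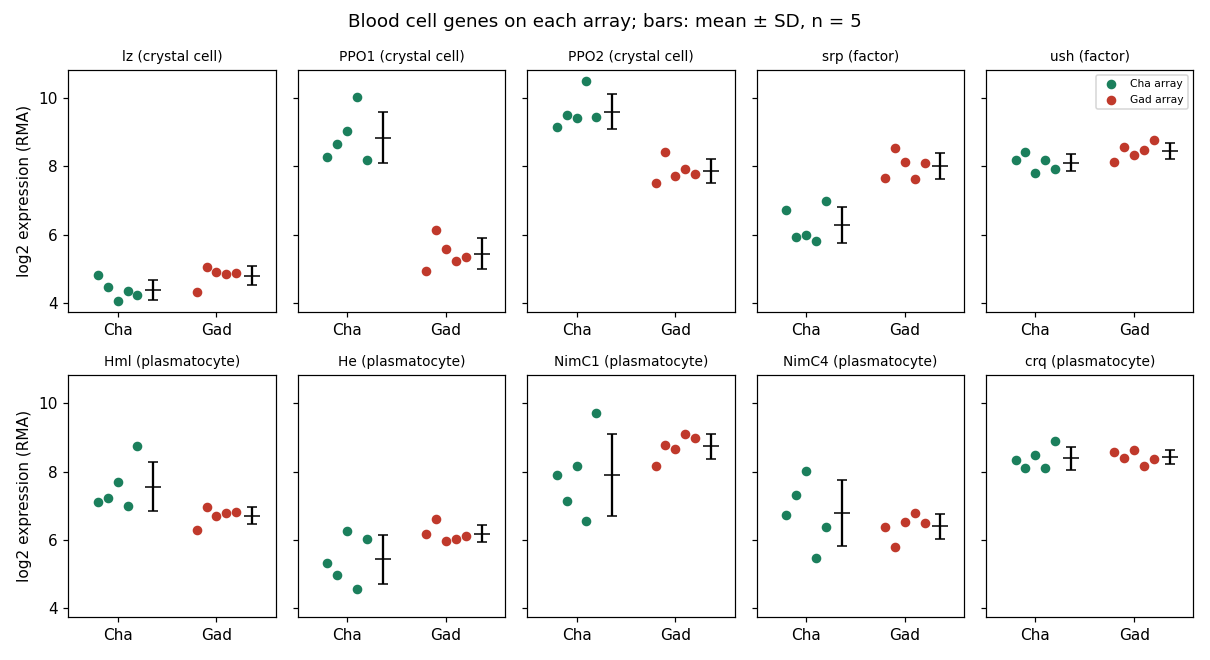
Log2 expression of each of the 10 blood cell genes (y axis) on each array, with 5 Cha arrays (green, left) and 5 Gad arrays (red, right) in replicate order and black bars for the mean ± SD of each group. PPO1, PPO2 and Hml have all Cha arrays above all Gad arrays, srp has the opposite order, and lz lies near the bottom of the scale in both groups.

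PPO1 encodes a prophenoloxidase of crystal cells, an enzyme that oxidises phenols once it has been cleaved. It stood at 8.28, 8.65, 9.04, 10.03 and 8.17 on the Cha arrays and at 4.93, 6.14, 5.57, 5.24 and 5.35 on the Gad arrays, all on the log2 scale. The lowest Cha array was thus well above the highest Gad array, and every Gad array still lay above the dim level. PPO1 was 10.5-fold higher in Cha, a difference of 3.39 (SE 0.34, 95% interval 2.64 to 4.14, limma adjusted p = 0.000197). By its p-value it ranked 48 among the 11983 genes. Its mean level lay at percentile 69.7 of all genes in Cha and at percentile 32.6 in Gad.

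PPO2 encodes the second crystal cell prophenoloxidase, which is stored in crystals in the cytoplasm. It had 9.15, 9.51, 9.40, 10.50 and 9.44 in Cha, against 7.5, 8.42, 7.72, 7.92 and 7.78 in Gad. The groups were again fully apart, but PPO2 was well above the dim level in Gad too, at percentile 55.3 of all genes. The difference was 1.73 (SE 0.25, 95% interval 1.19 to 2.28, limma adjusted p = 0.00143), or 3.32-fold. Leaving out any 1 array kept both prophenoloxidase genes past the threshold, with differences of 3.09 to 3.56 for PPO1 and 1.51 to 1.87 for PPO2.

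The gene of the factor that specifies crystal cells was not higher in Cha, but it lay near the dim level. The gene lz had 4.82, 4.48, 4.06, 4.35 and 4.23 in Cha and 4.32, 5.06, 4.90, 4.84 and 4.87 in Gad. It lay above the dim level on 1 of 5 Cha arrays and 4 of 5 Gad arrays, so it was barely measured in Cha. Its difference of -0.41 (95% interval -0.78 to -0.04) was not past the threshold (limma adjusted p = 0.116). Without Cha replicate 1 or Gad replicate 1 it passed (-0.52, limma adjusted p = 0.0438, and -0.53, limma adjusted p = 0.0424), with the higher mean in Gad.

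The hematopoietic GATA factor gene srp, which is also known as a fat body factor, was higher in Gad. Its values were 6.73, 5.92, 5.98, 5.83 and 6.97 in Cha and 7.65, 8.53, 8.14, 7.64 and 8.09 in Gad. All 5 Gad arrays exceeded all 5 Cha arrays. The difference was -1.73 (SE 0.26, 95% interval -2.29 to -1.16, limma adjusted p = 0.00165), or 3.31-fold. It stayed past the threshold when any 1 array was left out, at -1.90 to -1.59.

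The gene ush had 8.18, 8.43, 7.81, 8.19 and 7.91 in Cha and 8.14, 8.57, 8.34, 8.47 and 8.76 in Gad. These ranges overlapped, and the difference of -0.35 (95% interval -0.68 to -0.03) was not past the threshold (limma adjusted p = 0.123). Its spread within a group was among the lowest of the 10 genes, with an SD of 0.25 in Cha and 0.24 in Gad.

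**Figure D2:**
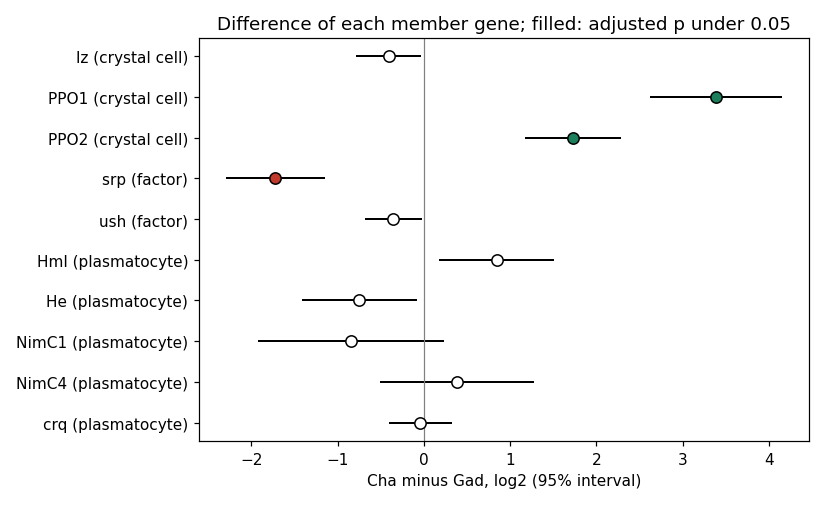
Difference of each of the 10 genes, Cha minus Gad on the log2 scale (x axis), with its 95% interval from the limma fit over all genes; filled points passed an adjusted p of 0.05, in green where higher in Cha and in red where higher in Gad. PPO1 and PPO2 stand to the right at 3.39 and 1.73, srp to the left at -1.73, and the 5 plasmatocyte genes lie on both sides of 0 with open points.

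The 5 plasmatocyte genes had no common direction, and none of them passed the threshold in limma, although at an unadjusted p under 0.05 there was 1 in each direction, Hml and He. Their median difference was -0.04, with 2 positive and 3 negative. Hml encodes hemolectin, a large secreted clotting protein. It had 7.12, 7.22, 7.68, 6.98 and 8.75 in Cha and 6.29, 6.96, 6.69, 6.78 and 6.83 in Gad. Although every Cha array lay above every Gad array, the gap was narrow, at 6.98 in the lowest Cha array against 6.96 in the highest Gad array. The difference of 0.84 (95% interval 0.18 to 1.5) missed the threshold (limma adjusted p = 0.0747), and it passed without Cha replicate 4 (0.99, limma adjusted p = 0.0388). The exact permutation test of Hml alone gave p = 0.00794, the smallest it can give with 5 against 5 arrays.

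He, or hemese, encodes a sialic acid-bearing surface protein of hemocytes. It had 5.34, 4.97, 6.26, 4.56 and 6.04 in Cha and 6.18, 6.61, 5.97, 6.04 and 6.10 in Gad. The Cha arrays spread over a wider range that took in part of the Gad values, and Cha replicate 4 lay under the dim level. The difference was -0.75 (95% interval -1.40 to -0.09, limma adjusted p = 0.107), and -0.95 without Cha replicate 3 (limma adjusted p = 0.0401).

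NimC1 encodes a phagocytosis receptor that serves as a plasmatocyte marker. It had 7.89, 7.13, 8.16, 6.56 and 9.72 in Cha and 8.17, 8.78, 8.65, 9.09 and 8.99 in Gad. The lowest values were on Cha arrays, and so was the highest, that of Cha replicate 5. The difference was -0.84 (95% interval -1.91 to 0.22, limma adjusted p = 0.263). Without Cha replicate 5 it was -1.30 and past the threshold (limma adjusted p = 0.0208), so this array decides the call.

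NimC4, also called simu, encodes a receptor that binds apoptotic cells and is known from embryonic macrophages and glia. It had 6.72, 7.31, 8.02, 5.46 and 6.38 in Cha and 6.38, 5.8, 6.52, 6.79 and 6.50 in Gad, with overlapping groups. The difference was 0.38 (95% interval -0.50 to 1.26, limma adjusted p = 0.561). It was 0.07 when Cha replicate 3 was omitted and 0.71 when Cha replicate 4 was, past the threshold in neither fit.

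The scavenger receptor gene crq (croquemort), whose product takes part in the uptake of apoptotic cells, was the most even of the 10 between groups. It had 8.33, 8.11, 8.48, 8.09 and 8.89 in Cha and 8.58, 8.39, 8.64, 8.15 and 8.36 in Gad. Its difference of -0.04 had the interval -0.39 to 0.31 (limma adjusted p = 0.889), and its sign turned when Cha replicate 2, Cha replicate 4 or Gad replicate 3 was left out. The identifier of its probe set carries the suffix that Affymetrix gives to sets that may match more than 1 transcript sequence.

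The 2 lineages were set against each other within each array by taking the mean of the 3 crystal cell genes minus the mean of the 5 plasmatocyte genes, a description with no test. This gap was 0.34, 0.60, -0.22, 1.96 and -0.67 on the Cha arrays and -1.54, -0.77, -1.23, -1.37 and -1.35 on the Gad arrays. Each Cha value lay above each Gad value, narrowly so for Cha replicate 5 against Gad replicate 2. The crystal cell mean was 7.61 ± 0.40 in Cha and 6.04 ± 0.34 in Gad (SD, n = 5 each). The plasmatocyte mean was 7.21 ± 0.65 in Cha and 7.29 ± 0.10 in Gad (SD, n = 5 each). The shift of the gap between groups, 1.65 on the log2 scale, thus came with a crystal cell difference of 1.57 and a plasmatocyte difference of -0.08. The crystal cell difference came from PPO1 (3.39) and PPO2 (1.73), while lz had the opposite sign (-0.41). In the plasmatocyte mean, Hml (0.84) and NimC4 (0.38) were offset by NimC1 (-0.84), He (-0.75) and crq (-0.04). Because levels of different probe sets cannot be set against each other, only the shift between groups has a meaning, not the sign of a gap.

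Within Cha, several genes of the lineages varied in opposite ways on 2 arrays, replicates 4 and 5. Over all probe sets these were also the least alike Cha arrays (r = 0.971). Cha replicate 4 had the highest PPO1 and PPO2 of all arrays and the lowest NimC1, NimC4, He and crq. Cha replicate 5 had the highest Hml, NimC1 and crq of all arrays and the lowest PPO1 of its group. On that array NimC4 lay below its Cha mean (6.38 against 6.78), and PPO2 (9.44) ranked in the middle of the Cha arrays. Within Gad, replicate 2 had the highest PPO1 and PPO2 of its group together with the highest srp, Hml, He and lz, and the lowest NimC4. For 7 of the 10 genes the Cha SD was over 1.5 times the Gad SD, but so it was for 50.8% of all genes. The Cha SD of NimC1, 1.20, lay at percentile 98.9 of all genes, and that of NimC4, 0.96, at percentile 97.7.

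**Figure D3:**
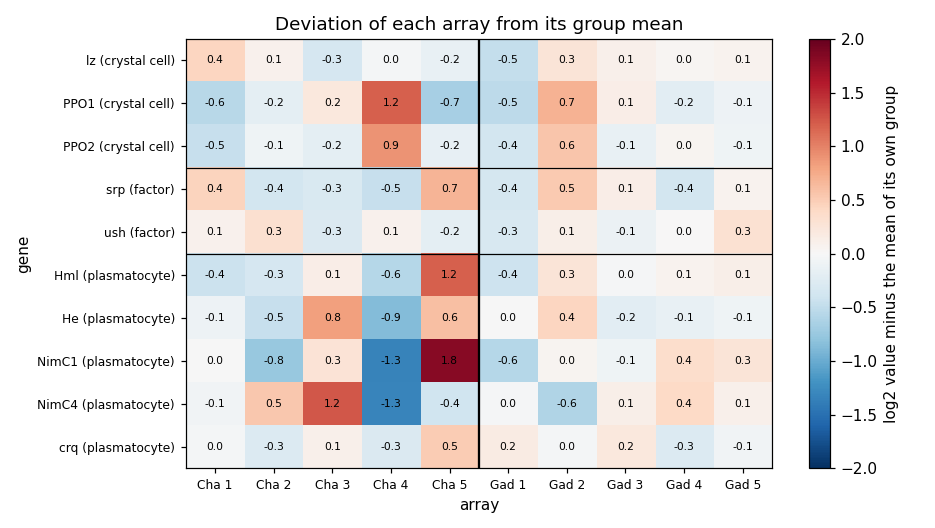
Deviation of each array (columns) from the mean of its own group for the 10 genes (rows), on the log2 scale, red above and blue below the mean, with the value printed in each cell. Cha replicate 4 is above its group for PPO1 and PPO2 and below it for the 5 plasmatocyte genes, while Cha replicate 5 is above its group for Hml, He, NimC1 and crq and below it for PPO1.

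Likeness between genes was described by Pearson's r of the deviations from the group means over the 10 arrays, which share their normalization. PPO1 and PPO2 had r = 0.90 (Spearman's rho 0.65), and r = 0.44 without Cha replicate 4 and Gad replicate 2, on which it therefore largely rests. Hml and NimC1 had r = 0.93 (rho 0.81), and r = 0.72 without Cha replicates 4 and 5. Hml and PPO1 had r = -0.29 (rho -0.04), which became 0.83 without these 2 arrays. Over the 10 arrays, all 10 pairs of a plasmatocyte gene with PPO1 or PPO2 had a negative r, from -0.67 (NimC4 and PPO2) to -0.11 (Hml and PPO2). Without Cha replicates 4 and 5, an alternative chosen after seeing the data, 3 of them were negative and 7 positive, from -0.38 to 0.83. Among 8934 genes above the dim level on at least 5 arrays, those most like PPO1 were CG4619 (r = 0.96), san (0.95) and CG17855 (0.94). Those most like Hml were Nufip (0.99), CG8229 (0.98) and CG9945 (0.97), and those most like srp were lace (0.97), ath (0.96) and Vps39 (0.95). None of these 9 genes was on a blood cell list. CG8229 and lace were higher in Gad (-0.77, limma adjusted p = 0.00506, and -0.53, limma adjusted p = 0.0237), and the other 7 were not past the threshold.

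Further genes known from crystal cells or from melanization were then compared. Among 19 measured genes of crystal cells and melanization, 6 were higher in Gad and 2 in Cha, against 10.2% and 8.21% of all genes. Their median difference was -0.09, and the count in Cha was near the share of all genes. The 2 higher in Cha, named after their values were seen, were CG9119 (0.66, SE 0.18, limma adjusted p = 0.0254) and PPO3 (1.72, SE 0.52, limma adjusted p = 0.0407). PPO3 encodes the prophenoloxidase known from lamellocytes, and it had 7.75, 6.61, 6.93, 8.09 and 9.99 in Cha against 5.86, 6.47, 5.97, 6.32 and 6.12 in Gad. Its groups were apart, so all 3 prophenoloxidase genes of the fly had their Cha arrays above their Gad arrays. The highest PPO3 was on Cha replicate 5, where PPO1 was lowest in its group. PPO3 was no longer past the threshold when Cha replicate 1, Cha replicate 4 or any of the 5 Gad arrays was omitted, nor CG9119 when Cha replicate 3 or any of Gad replicates 1, 3 and 5 was omitted. The other crystal cell genes of the list, set apart after the values were seen, did not pass. Their differences were 0.75 for CG17109, 0.53 for CG10467, 0.29 for Mlf, 0.15 for fok, 0.11 for peb, -0.09 for CG10469 and -0.72 for klu.

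The 6 genes higher in Gad are known to act before or after prophenoloxidase in melanization. Spn27A, a serpin that inhibits the protease step before prophenoloxidase, was higher in Gad (9.16 ± 0.44 in Cha and 10.70 ± 0.38 in Gad, SD, n = 5 each, limma adjusted p = 0.00177). Spn77Ba, a serpin that restrains melanization in the tracheae, was also higher in Gad (-1.16, limma adjusted p = 0.00465). Hayan, a protease gene of prophenoloxidase activation (-1.39, limma adjusted p = 0.0124) and yellow-f, an enzyme gene of melanin synthesis (-1.84, limma adjusted p = 0.0145), were also higher in Gad. The remaining 2, outside the naming rule, were yellow-f2 (-2.04) and the protease gene Sp7 (-0.67). Sp7 was no longer past the threshold when any of Cha replicates 2, 3 and 4 or Gad replicates 1, 2, 3 and 5 was omitted, nor yellow-f2 when Cha replicate 2 or any of Gad replicates 1, 2 and 3 was. Others of the list that act there did not pass, namely the serpin gene Spn28Dc (-0.22, limma adjusted p = 0.635), Pu (-0.13, limma adjusted p = 0.557) and the dopa decarboxylase gene Ddc (-0.02, limma adjusted p = 0.969). The tyrosine hydroxylase gene ple was under the dim level on all arrays.

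Of 21 further genes known from plasmatocytes, 13 were higher in Gad and 0 in Cha, against 10.2% and 8.21% of all genes. Their median difference was -0.94. The count of 0 in Cha was 2 at an unadjusted limma p under 0.05, and 2 when Cha replicate 4 was omitted. The list named NimB1, which encodes a secreted Nimrod protein (6.44 ± 0.58 in Cha and 8.83 ± 0.71 in Gad, SD, n = 5 each, limma adjusted p = 0.00175). It also named the laminin subunit genes LanA (-0.93), LanB1 (-1.38) and LanB2 (-1.48), with limma adjusted p = 0.00227, 0.00277 and 0.00384. When the list was split by the site of the product, after the values were seen, 7 of 9 matrix and adhesion genes passed with the higher level in Gad, as did the 4 secreted Nimrod genes of the list and 2 of 8 surface receptor genes (drpr, -0.75, and Pvr, -0.94). Among the receptor genes, NimC2 and NimC3 were under the dim level on all arrays, and Sr-CII was above it on 1 of 5 Cha arrays. None of the matrix and adhesion or secreted Nimrod genes was under it on all arrays. The list did not hold NimB3, which did not pass (-1.56, limma adjusted p = 0.0867). Of the receptor genes that did not pass, Sr-CI, a class C scavenger receptor, had the difference 1.5 (limma adjusted p = 0.054) and eater, a bacterial uptake receptor of the Nimrod family, 0.51 (limma adjusted p = 0.444). The eater difference was 0.13 when Cha replicate 5 was omitted and 0.82 when Cha replicate 4 was, past the threshold in neither fit. Pvr no longer passed when Cha replicate 3 or either of Gad replicates 2 and 3 was omitted. The summed linear level of the whole list ranged from 10458 to 29319 in Cha and from 42117 to 74395 in Gad, with no overlap. Such a sum rests mostly on the brightest genes. The 9 matrix and adhesion genes alone ran from 6519 to 18751 in Cha and from 26510 to 46652 in Gad. The sums of the 8 surface receptor genes overlapped, at 2778 to 4879 in Cha and 4727 to 6696 in Gad.

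The Nimrod genes offer a comparison within a stretch of the genome. In the RefSeq table of the Release 6 assembly, He and NimC1 are neighbours that follow the NimB genes, and NimC4 ends a run of 18 protein-coding genes that begins with NimA. Of the 17 measured, 7 were higher in Gad and 1, nAChRalpha5, in Cha, against 10.2% and 8.21% of all genes. Of the 5 NimB genes, whose products are secreted, 4 were higher in Gad (NimB1, NimB2, NimB4 and NimB5), with a median difference of -2.03. None of the 4 NimC genes passed, nor did any at an unadjusted limma p under 0.05. Their median difference of -0.0045 lay between NimC2 (-0.05) and NimC3 (0.04), both under the dim level on all arrays. It thus says little of NimC1 and NimC4, above that level on all arrays, which differed by -0.84 and 0.38. The difference between the NimB and NimC genes was itself not tested.

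NimB2 averaged 11.54 ± 0.95 in Cha and 13.57 ± 0.32 in Gad (SD, n = 5 each, limma adjusted p = 0.00571), while its near neighbour He differed by -0.75 without passing. NimB5 lies next to He and differed by -1.41 (limma adjusted p = 0.0335), a call lost when Cha replicate 2 or any of Gad replicates 1, 2, 3 and 5 was omitted. The one NimB gene that did not pass was NimB3 (-1.56, limma adjusted p = 0.0867). NimA was higher in Gad on its brighter probe set (-0.95, limma adjusted p = 0.000877) but under the dim level on all Cha arrays, and its other probe set differed by -0.04.

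**Figure D4:**
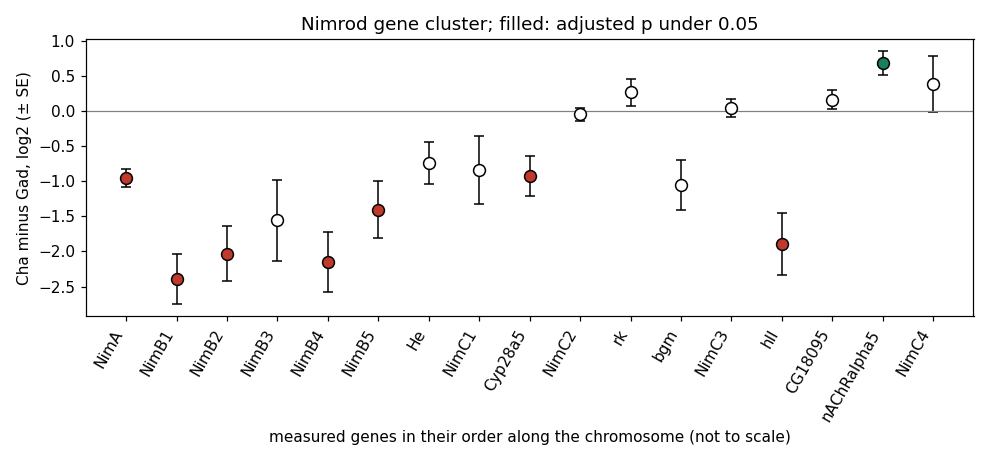
Difference of the 17 measured genes from NimA to NimC4, Cha minus Gad on the log2 scale (y axis, ± SE), in their order along the chromosome (x axis, not to scale); filled points passed an adjusted p of 0.05, red where higher in Gad and green where higher in Cha. NimB1 to NimB5 lie between -2.39 and -1.41, He and NimC1 at -0.75 and -0.84 with open points, and NimC4 at 0.38.

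Of 18 measured regulators of blood cell fate, 2 passed with the higher level in Cha and 0 with the higher level in Gad, against 8.21% and 10.2% of all genes, and the median difference was 0.04. The count of 0 in Gad was 2 at an unadjusted limma p under 0.05, and 1 when Cha replicate 5 or either of Gad replicates 1 and 2 was omitted. Pvf3, which encodes a PDGF- and VEGF-related ligand of the receptor Pvr, was higher in Cha (0.87, SE 0.12, limma adjusted p = 0.00123) but above the dim level on only 1 of 5 Gad arrays, and its 3 other probe sets, all under the dim level in both groups, differed by 0.01 to 0.19. The gene kn, for the COE factor Collier, was higher in Cha (1.13, SE 0.22, limma adjusted p = 0.00557). It is needed for the larval blood cell niche and also marks certain neurons. Its other probe set, under the dim level in both groups (means 3.78 in Cha and 3.86 in Gad), differed by -0.08. Of 9 lamellocyte genes, 1 was higher in Gad and 1 in Cha, near the 10.2% and 8.21% of all genes, with a median of -0.01. They were Tep4 in Gad (-0.85, limma adjusted p = 0.0138) and puc in Cha (0.39, limma adjusted p = 0.0147). The Cha count of 1 became 2 without Cha replicate 2 or Cha replicate 3.

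Markers of other cell types moved between the groups as well, and their part in the blood cell results was not tested. Of 8 measured fat body markers, 5 were higher in Gad and 0 in Cha, against 10.2% and 8.21% of all genes. Their median difference was -1.96. The 5 were Pepck1 (-2.0), AkhR (-2.18), Lsd-1 (-1.91), Apoltp (-2.02) and Lsp2. Fbp1 (-0.05, limma adjusted p = 0.842) and Fbp2 (0.09, limma adjusted p = 0.717) did not pass. They were above the dim level on 3 and 4 of 5 Cha arrays. The summed linear level of the 8 ranged from 3279 to 18332 in Cha and from 20198 to 38156 in Gad. Of this sum, apolpp, which did not pass (-1.25, limma adjusted p = 0.0511), made up 69.7% to 77.8% in Cha and 51.6% to 62.8% in Gad. The sum of the other 7 ran from 993.1 to 4064 in Cha and from 7523 to 18451 in Gad, and no fat body marker was under the dim level on all arrays. At an unadjusted limma p under 0.05, 6 were higher in Gad and 0 in Cha. AkhR was above the dim level on 3 of 5 Cha arrays, and its other probe set, under that level, differed by -0.02. Lsp2, named after its values were seen, was under the dim level on all 5 Cha arrays and ran from 4.67 to 12.32 in Gad, and it no longer passed when Cha replicate 3 or either of Gad replicates 1 and 3 was omitted. srp, which fat body cells are also known to express, was likewise higher in Gad, as were the called genes of the glia and muscle lists below. Matrix genes such as those for collagen and laminin are known from fat body and from blood cells. Whether these shared directions are linked was not tested.

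Of 11 neuron markers, 5 were higher in Cha and 0 in Gad (median 0.68), against 8.21% and 10.2% of all genes. They were led by Syn (1.75), futsch (1.3), fne (1.29) and nrv3 (0.83). The summed level of the 11 ran from 20002 to 35455 in Cha and from 11848 to 22059 in Gad. The call of nrv3 ended without Gad replicate 3, where 3 neuron markers passed, and 2 other probe sets of futsch, both near the dim level, differed by 0.09 and -0.04. Of 11 glia markers, 3 were higher in Gad (zyd -0.83, loco -0.56 and repo -0.88, median -0.44), with sums of 6563 to 8210 in Cha and 8393 to 11482 in Gad. Of 6 muscle markers, 4 were higher in Gad (Mlc2 -1.10, Prm -1.22, Act87E -0.95 and up -1.11, median -1.02), with sums of 509.5 to 1277 in Cha and 927.9 to 1417 in Gad. The muscle count was 2 when any of Cha replicates 1, 3 and 5 or Gad replicates 3, 4 and 5 was omitted. For GAPDH, the difference of the 3′ and 5′ control probe sets, a sign of RNA length, averaged 2.91 ± 0.38 in Cha and 3.41 ± 0.19 in Gad (SD, n = 5 each, exact permutation p = 0.0317, adjusted over 3 controls 0.0952). For actin it averaged 5.47 ± 0.42 in Cha and 5.48 ± 0.19 in Gad (exact permutation p = 0.984). For eIF4a the order was the opposite, at 5.25 ± 0.39 in Cha and 4.98 ± 0.15 in Gad (exact permutation p = 0.214).

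**Figure D5:**
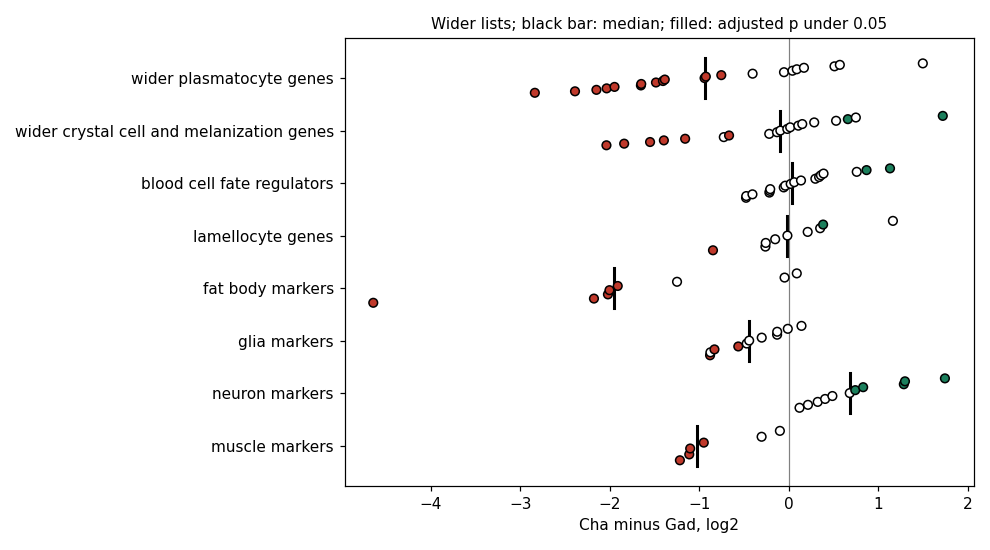
Difference of every measured gene of the 8 wider lists, Cha minus Gad on the log2 scale (x axis), one row per list, with a black bar at the list median; filled points passed an adjusted p of 0.05, red where higher in Gad and green where higher in Cha. The further plasmatocyte genes reach from -2.84 to 1.5 around a median of -0.94, and the fat body markers lie around a median of -1.96.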

How the data were processed

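RNA of 5 Cha and 5 Gad samples was measured on 1-colour Affymetrix arrays, and groups and replicate numbers come from the sample titles. The deposited values are log2 expression values made by the authors; RMA is the method per the submitters' processing notes, and its version is not given in the sources used here. Detection calls were not used here, and the number of arrays limits the precision. Of 18952 probe sets, 183 controls were left out, and 13647 had 1 gene symbol, 402 several and 4720 none. Symbols come from the platform annotation, and 0 were changed by the RefSeq gene table.

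Differences are Cha minus Gad from limma 3.58.1 in R 4.3.3 (lmFit, eBayes, 2-sided), fitted over all 11983 genes with Benjamini-Hochberg adjustment and a threshold of 0.05. The step was tested on simulated data. Members and lists were chosen with earlier results of these data known. The text names all 10 members, up to 4 called genes of each list with the smallest p, and the 3 genes most like PPO1, Hml and srp. Same-numbered samples did not deviate together (r = -0.37 to 0.03), so no block was used. Alternatives were cyclic loess, a second quantile normalization, centring on the median, removal of dim probe sets (not above the percentile 40 of the array on at least 5 arrays), a trended prior, array weights, the block, averaged probe sets, a threshold of 0.01, exact permutation tests and leaving out arrays. Treating Gad replicates 4 and 5, the closest Gad pair, as 1 array was added after seeing the data.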

Additional observations from a re-analysis of the deposited data

Results flagged for a closer look

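One of the 20 groups of 5 values (10 genes in Cha and in Gad) held an array far from the others. PPO2 stood at 10.50 on the array of Cha replicate 4, and the next highest Cha array stood at 9.51, a gap of 0.73 of the whole range of the group. Chance alone flags about 1 in 20 groups. PPO1 was also highest on that array (10.03), and without it the differences of PPO1 and PPO2 were 3.09 and 1.51, both past the threshold.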

How the results depend on the processing

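PPO1, PPO2 and srp kept their direction and their calls under every alternative run, at 3.09 to 3.56, 1.51 to 1.87 and -1.90 to -1.59. He and Hml passed with array weights (-0.73 and 0.73). Exact permutation p-values were not adjusted over genes, and that of Hml was 0.00794 (difference 0.84). Leaving out 1 array each gave -0.95 to -0.53 for He, 0.54 to 0.99 for Hml, -1.30 to -0.51 for NimC1, -0.53 to -0.33 for lz and -0.17 to 0.031 for crq. crq turned to 0.0082 without Cha replicate 2 and Gad replicate 5, whose labels share a letter. The count of members higher in Gad was 2 with array weights and 1 to 2 over the fits without 1 array. The count of members higher in Cha was 2 to 3 over the alternatives, and also over the fits without 1 array. Over the 4 wider blood cell lists, the 5 genes higher in Cha became 2 with the replicate block, 2 at a threshold of 0.01, 3 without these 2 arrays, 3 with Gad replicates 4 and 5 as 1 array, and 3 to 6 without 1 array. The 20 higher in Gad became 12 at a threshold of 0.01 and 16 to 21 without 1 array. Median centring gave the plasmatocyte list 1 gene higher in Cha, and a second quantile normalization, dim probe set removal and array weights gave 2. Of the genes most like the members, CG9945 turned to -0.083 with averaged probe sets, and without 1 array ath ran from -0.051 to 0.27 and san from -0.025 to 0.11. The replicate block changed no call of the 10 members. Of all genes, 2212 passed, against 1113 with the replicate block, 1055 without the arrays of Cha replicate 2 and Gad replicate 5, 870 at a threshold of 0.01 and 1377 without Gad replicate 3. The 2 crystal cell and melanization genes higher in Cha became 0 with the block, without the pair of arrays that share a letter, at 0.01 and with Gad replicates 4 and 5 as 1 array, and 0 to 2 without 1 array; the 6 higher in Gad became 3 without that pair and 2 at 0.01. The 5 fat body markers became 3 without that pair and 3 at 0.01. The 4 muscle markers became 2 with the block, 2 with Gad replicates 4 and 5 as 1 array and 1 at 0.01, the 5 neuron markers became 3 with the block, without that pair and at 0.01, the lamellocyte gene higher in Cha became 0 in the same fits and the one higher in Gad 0 at 0.01, and array weights gave 1 fate regulator higher in Gad.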
